A study of Homo sapiens with 6 samples.

Results

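The genes described here are the ligands and receptors of axon guidance, measured by RNA sequencing in WPMY-1 cells, an immortalised line of stromal cells from normal human prostate. They were chosen by symbol as the semaphorins of classes 3 to 7, plexins, neuropilins, ephrins, Eph receptors, Slits, Robos, netrins and UNC5 receptors, which gave 68 of the 33117 rows of the deposited table. The design set 3 shCAVIN1 libraries, from WPMY-1 cells carrying a lentiviral short hairpin RNA against CAVIN1, against 3 shCtrl libraries, from WPMY-1 cells carrying the pLKO1 control plasmid. CAVIN1 helps to form caveolae, small pits of the cell membrane. The knockdown rests on 1 hairpin sequence in 1 cell line, packaged as virus in HEK293T cells, and in puromycin-selected stable clones whose number is not stated. The replicates are called independent, without a word on whether they came from separate transductions. The p-values therefore measure the spread between these libraries.

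Guidance cues were named for steering growing axons, and the same families act on the movement and contact of many other cell types. Secreted class 3 semaphorins bind neuropilins, which signal through plexins, and the membrane-bound semaphorins bind plexins directly. Ephrin-A ligands are tethered by a lipid anchor and ephrin-B ligands span the membrane, and contact with Eph receptor kinases can signal into both cells. Slits are secreted ligands of Robo receptors, and netrins act through DCC, neogenin and UNC5 receptors. In stromal tissue these systems are known for their part in cell repulsion, adhesion, branching and the patterning of blood vessels and nerves.

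The hairpin that defines the shCAVIN1 group and the promoters of 3 guidance genes are shown in this paragraph, to give the sequence aimed at and the start regions of the largest rise (ROBO1), of a rise at a high level (SEMA3B) and of the largest fall (EPHB6). The hairpin target is 21 bases long and matched a transcript of CAVIN1 exactly in GENCODE 29, and no transcript of any of the 68 guidance genes held it. The promoters are from RefSeq (GRCh38.p14), run from 250 bases before to 50 bases after the start, and have their CG dinucleotides in capitals.
CAVIN1 hairpin target: gtggaggttgaggaggttatt
ROBO1 promoter, chr3:79767949-79768248, minus strand: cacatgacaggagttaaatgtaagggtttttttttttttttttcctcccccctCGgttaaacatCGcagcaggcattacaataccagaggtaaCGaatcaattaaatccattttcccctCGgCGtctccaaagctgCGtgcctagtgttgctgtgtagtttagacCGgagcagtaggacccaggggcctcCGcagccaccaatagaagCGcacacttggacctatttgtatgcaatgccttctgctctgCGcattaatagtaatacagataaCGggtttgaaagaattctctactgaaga
SEMA3B promoter, chr3:50272869-50273168, plus strand: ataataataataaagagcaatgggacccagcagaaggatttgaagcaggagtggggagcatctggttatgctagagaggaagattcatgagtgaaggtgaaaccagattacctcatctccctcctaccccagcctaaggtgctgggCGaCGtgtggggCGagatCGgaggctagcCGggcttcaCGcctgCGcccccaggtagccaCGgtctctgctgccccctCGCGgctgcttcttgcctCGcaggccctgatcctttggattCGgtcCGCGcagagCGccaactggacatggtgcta
EPHB6 promoter, chr7:142862506-142862805, plus strand: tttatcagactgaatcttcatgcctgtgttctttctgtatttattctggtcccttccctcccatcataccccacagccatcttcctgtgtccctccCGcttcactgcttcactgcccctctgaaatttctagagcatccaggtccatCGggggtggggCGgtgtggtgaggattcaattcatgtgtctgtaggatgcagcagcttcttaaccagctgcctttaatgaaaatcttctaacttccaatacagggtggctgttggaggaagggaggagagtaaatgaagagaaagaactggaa
The SEMA3B and EPHB6 starts lie inside the span that GENCODE gives these genes, so they are not the only annotated starts. The ROBO1 promoter holds 11 CG dinucleotides, that of SEMA3B 15 and that of EPHB6 3, against a median of 14 over 35116 promoters of the same length. A promoter was found for 58 guidance genes, with a median of 21.5 CG dinucleotides. The letters GGAATG, the core of the binding motif of TEAD factors, were searched on both strands and stood in 5 of these 58 promoters (8.62%), against 14.0% of all promoters. They were in 1 of 15 promoters of the guidance genes that rose (EPHA2) and in 1 of 9 of those that fell (NTN4). The median GC content was 66.2% in the 58 promoters and 58.7% over all promoters, and the motif shares were not adjusted for it.

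CAVIN1 itself, listed under its older symbol PTRF, stood at 134, 139 and 150.2 FPKM in shCAVIN1 libraries, against 329.6, 346.9 and 330.3 FPKM in shCtrl libraries. FPKM is the authors' unit, fragment numbers divided by gene length and library size. The groups did not overlap, and the ratio of means was 0.42 (log2 -1.25, SE 0.0586, limma adjusted p = 2.88e-05; exact two-sided permutation p = 0.1, the smallest that 3 against 3 libraries allow). The 6 libraries had between 19649 and 20435 genes above 0, with FPKM sums of 758837 to 1043843. The abundant RNA RN7SK, which counts towards these sums, was at 0 in shCtrl replicate 2 alone. Every other library had it between 106035 and 151555 FPKM. Stromal markers were present: vimentin (VIM) lay between 282.9 and 310.3 FPKM in shCAVIN1 libraries, and between 252.3 and 308.5 FPKM in shCtrl libraries. The epithelial markers EPCAM, CDH1, KRT5 and KLK3 stayed under 1 FPKM in all libraries, while KRT8 and KRT18 did not, and the mature smooth muscle markers MYH11 and DES were also under 1 FPKM. Of the 8 stromal markers, all tested, 1 rose (S100A6, log2 1.81, limma adjusted p = 1.16e-05) and 4 fell. The falls included the matrix genes COL1A2 (log2 -3.06, limma adjusted p = 1.16e-05) and FN1 (log2 -1.74, limma adjusted p = 0.000792). With S100A6 as its largest part, the sum of the 8 was 2020 to 2070 FPKM in shCAVIN1 libraries and 1210 to 1330 FPKM in shCtrl libraries. Of the 3 tested smooth muscle markers, ACTA2 rose and TAGLN and CNN1 fell, of the 2 tested epithelial markers KRT8 rose and KRT18 fell, and of 3 immune markers CD68 rose while PTPRC and CD3E stayed under 1 FPKM. The part of these library and marker differences in the guidance results was not tested.

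Of the 68 guidance genes, 45 passed the filter on low values, a mean of at least 0.5 FPKM over the 6 libraries, and 23 did not. Among the 45, 17 rose, 13 fell and 15 did not pass the threshold (limma on log2(FPKM + 0.5), Benjamini-Hochberg adjusted p under 0.05 over all 13941 tested genes). That is 66.7% changed, against 55.5% of all tested genes (27.3% higher and 28.2% lower). The median log2 fold change of the 45 was 0.00, against -0.02 over all tested genes, and their median absolute log2 fold change was 0.45, against 0.27. In all, 11 of the 45 (24.4%) passed with a change of at least 2-fold on this scale and no overlap between the groups, 9 higher and 2 lower, against 5.52% of all tested genes (2.64% higher and 2.88% lower). The number depends on the pseudocount, with 14 of the 45 (31.1%, against 7.77% of all tested genes) at 0.1 and 8 (17.8%, against 3.82%) at 1. For 33 of the 45 (73.3%), all libraries of a group lay above all of the other, against 64.6% of all tested genes. After rescaling each library to TPM, which equalises the sums, 16 of the 45 rose and 7 fell, 24.5% of all tested genes changed (15.8% higher and 8.7% lower), and 64.45% of the genes called were higher, against 49.22% as deposited. Of the 45, 7 reached the filter only through the group in which they were higher (EPHA3, EPHA5, EPHA6, EPHB6, NTN3, SEMA3A and SEMA4G), so these counts are no independent support. Log2 fold changes are shCAVIN1 over shCtrl with 0.5 added to each FPKM, which understates changes of low genes, and ratios given beside them are of mean FPKM. In bulk RNA, a change in the share of cells that express a gene and a change in the RNA per cell cannot be told apart.

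**Figure D1:**
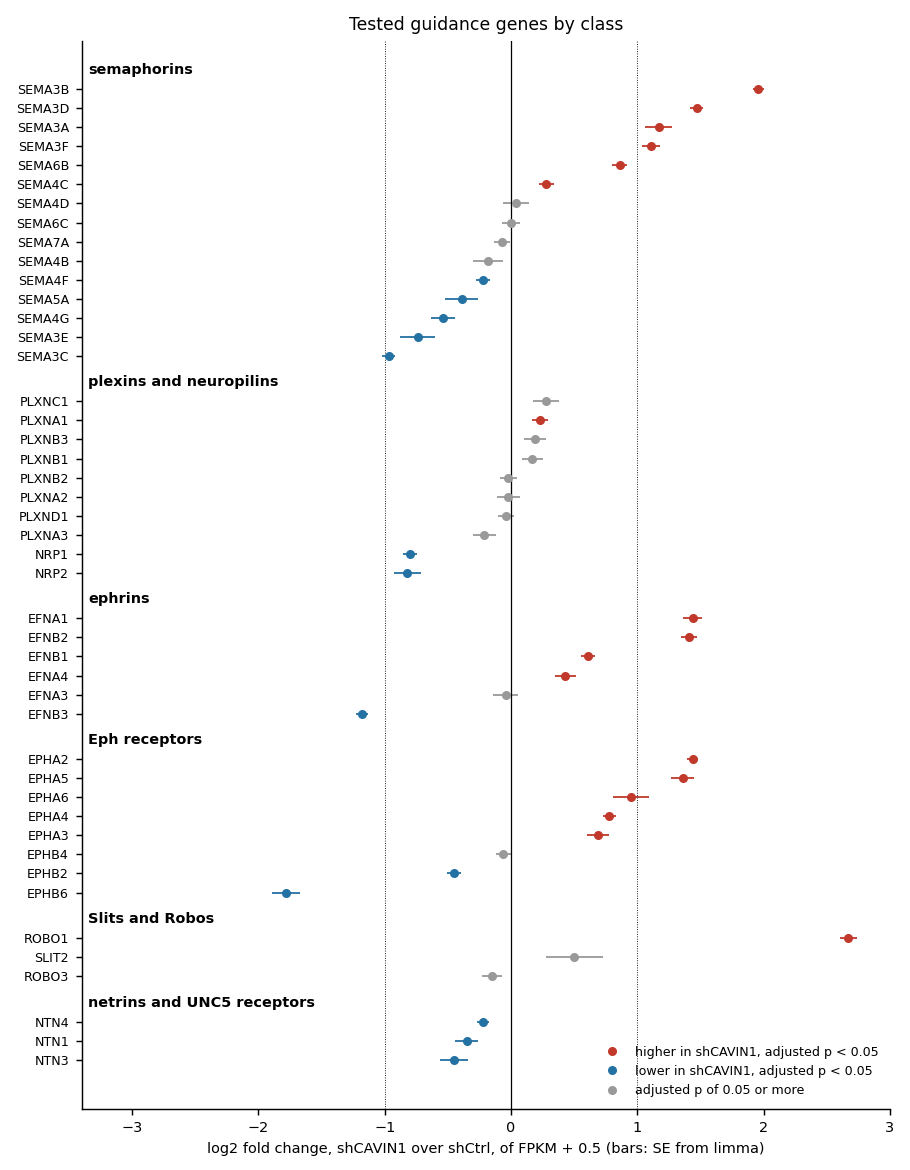
Log2 fold change (shCAVIN1 over shCtrl, horizontal axis, no unit) of the 45 tested guidance genes by class, with bars for the SE from limma and dotted lines at a 2-fold change. ROBO1 lies farthest to the right at 2.67 and EPHB6 farthest to the left at -1.78, while 7 of the 10 plexins and neuropilins are grey.

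Semaphorins are the largest class here, with 20 genes, of which 15 were tested, 6 rose and 5 fell. The shares over all tested genes were 27.3% higher and 28.2% lower. SEMA3A and SEMA4G reached the filter only through the group in which they were higher. Among the secreted class 3 ligands, SEMA3B, SEMA3D, SEMA3A and SEMA3F rose by 2.42-fold to 4.98-fold in mean FPKM, and SEMA3C and SEMA3E fell. SEMA3B, a ligand with tumour suppressor activity in several epithelia, stood at 24.1, 24.7 and 24.4 FPKM in shCAVIN1 libraries, against 6.13, 5.94 and 5.63 FPKM in shCtrl libraries. Every shCAVIN1 library was above 24 FPKM and every shCtrl library below 7 FPKM, a ratio of 4.14 (log2 1.96, SE 0.0444, limma adjusted p = 4.21e-06). SEMA3C, a ligand known for its action on neural crest and endothelial cells, was the most abundant semaphorin in shCtrl, at 23.9, 22.8 and 22.0 FPKM in shCAVIN1 libraries, against 44.4, 47.7 and 44.1 FPKM in shCtrl libraries. The SEMA3C groups were well apart, and its mean was 50.4% of that in shCtrl (log2 -0.97, SE 0.0512, limma adjusted p = 4.39e-05).

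SEMA3D, which guides neural crest and endothelial cells, was at 8.23, 7.52 and 7.82 FPKM in shCAVIN1 libraries, against 2.45, 2.48 and 2.60 FPKM in shCtrl libraries. The rise was 3.13-fold, larger than the spread within either group (log2 1.47, SE 0.0536, limma adjusted p = 1.32e-05). SEMA3F, which signals through neuropilin-2, was at 5.70, 4.91 and 5.04 FPKM in shCAVIN1 libraries, against 2.27, 2.07 and 2.11 FPKM in shCtrl libraries (log2 1.11, SE 0.0718, limma adjusted p = 8.43e-05). SEMA3A, the collapse factor of growth cones that signals through neuropilin-1, was low throughout, at 1.31, 1.02 and 1.11 FPKM in shCAVIN1 libraries, against 0.230, 0.267 and 0.194 FPKM in shCtrl libraries. All 3 shCAVIN1 values of SEMA3A lay above 1 FPKM and all 3 shCtrl values below 0.3 FPKM (log2 1.17, SE 0.106, limma adjusted p = 0.000269). SEMA3E, which binds plexin-D1 without a neuropilin, fell to 0.593 ± 0.151 FPKM in shCAVIN1, against 1.32 ± 0.201 FPKM in shCtrl (SD, n = 3 each; log2 -0.74, limma adjusted p = 0.0052). SEMA3G stayed under 0.04 FPKM in all libraries.

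Summed over the 7 class 3 genes, the level was 62.1 ± 1.65 FPKM in shCAVIN1 and 57.5 ± 2.16 FPKM in shCtrl (SD, n = 3 each), so the sums lay close while the make-up differed. SEMA3C made up 37.3%, 37.1% and 36.1% of that sum in shCAVIN1 libraries, against 78.1%, 79.6% and 79.1% in shCtrl libraries. SEMA3B made up 37.6%, 40.3% and 40.0% in shCAVIN1 libraries, against 10.8%, 9.90% and 10.1% in shCtrl libraries. SEMA3C thus held most of the class 3 sum in every shCtrl library, and in every shCAVIN1 library the share of SEMA3B was the larger of the pair. These shares and sums were not tested.

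Among the transmembrane semaphorins, SEMA6B rose to 14.2 ± 0.819 FPKM in shCAVIN1, against 7.60 ± 0.314 FPKM in shCtrl (SD, n = 3 each; log2 0.86, limma adjusted p = 9.35e-05). SEMA4C, a ligand of plexin-B2, rose by a smaller step, to 14.2 ± 0.963 FPKM in shCAVIN1, against 11.6 ± 0.462 FPKM in shCtrl (log2 0.28, limma adjusted p = 0.00902). SEMA4F, SEMA4G and SEMA5A fell, at log2 fold changes of -0.22, -0.54 and -0.39. SEMA5A passed narrowly (limma adjusted p = 0.0447) and missed the threshold in 11 of the 15 alternative settings that tested it, among them the omission of shCAVIN1 replicate 1, 2 or 3 (limma adjusted p of 0.0966, 0.117 and 0.0824) or of shCtrl replicate 1 or 3 (0.0797 and 0.0996). SEMA4F missed it without shCAVIN1 replicate 1 or 3 (limma adjusted p of 0.0604 and 0.059) or shCtrl replicate 3 (0.062), and the calls of SEMA4F and SEMA4C were lost on the TPM scale. SEMA4G shares exon sequence with MRPL43 on the opposite strand, a row that averaged 97.9 FPKM, and the strand setting is not given, so its reads may be mixed. SEMA4B, SEMA4D (a ligand of plexin-B1), SEMA6C and SEMA7A (a lipid-anchored ligand of plexin-C1 and beta1 integrin) did not pass, with log2 fold changes of -0.18, 0.04, 0.00 and -0.07. The signs of SEMA4D, SEMA6C and SEMA7A turned in at least 1 alternative setting.

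**Figure D2:**
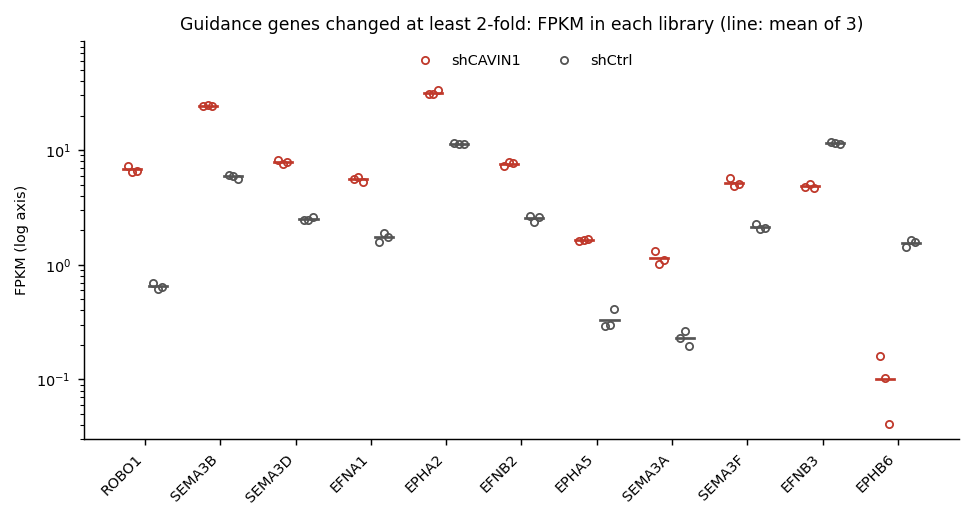
FPKM (vertical axis, logarithmic) in each library for the 11 guidance genes changed at least 2-fold, shCAVIN1 in red and shCtrl in grey, with a line at the mean of 3. The circles of the groups do not overlap in any of the 11, and EPHA2 and SEMA3B reach the highest levels, at 31.7 and 24.4 FPKM on average in shCAVIN1.

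Receptors of semaphorins differed by family: both neuropilins fell, while 1 of 8 tested plexins rose and 7 did not pass. Of all tested genes, 55.5% passed. NRP1, a co-receptor for class 3 semaphorins and for VEGF, was at 20.6, 20.2 and 19.5 FPKM in shCAVIN1 libraries, against 37.9, 33.9 and 34.2 FPKM in shCtrl libraries. No shCAVIN1 library exceeded 21 FPKM, and the mean was 56.9% of that in shCtrl (log2 -0.80, SE 0.0557, limma adjusted p = 0.000109). NRP2 averaged 1.54 ± 0.0919 FPKM in shCAVIN1 and 3.11 ± 0.474 FPKM in shCtrl (SD, n = 3 each; log2 -0.82, limma adjusted p = 0.00105). NRP1 made up 92.6% to 93.2% of the neuropilin sum in shCAVIN1 and 91.2% to 92.5% in shCtrl. The fall of the neuropilins stood beside the rise of SEMA3A, SEMA3B, SEMA3D and SEMA3F and the fall of SEMA3C.

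PLXNB2, a receptor for class 4 semaphorins, was the most abundant plexin, at 30.6, 27.9 and 27.1 FPKM in shCAVIN1 libraries, against 31.2, 27.4 and 28.3 FPKM in shCtrl libraries. Its groups overlapped (log2 -0.02, SE 0.069, limma adjusted p = 0.823). PLXNA1, which pairs with neuropilins, rose to 14.7 ± 0.206 FPKM in shCAVIN1, against 12.4 ± 0.972 FPKM in shCtrl (SD, n = 3 each; log2 0.23, limma adjusted p = 0.0191), a call lost in 6 of 16 alternative settings, among them the omission of shCAVIN1 replicate 1, 2 or 3 (limma adjusted p of 0.0615, 0.0653 and 0.0524) or of shCtrl replicate 3 (0.061). PLXNA3 fell short of the threshold with all libraries (log2 -0.21, limma adjusted p = 0.105), passed it without shCtrl replicate 2 (log2 -0.30, adjusted p = 0.0229), and shares exon sequence with the opposite-strand gene LAGE3 at 51.3 FPKM. PLXNC1, PLXNB3 and PLXNB1 had log2 fold changes of 0.28, 0.19 and 0.17, and PLXNA2 and PLXND1 of -0.02 and -0.04, none past the threshold, although PLXNC1 passed without shCtrl replicate 1 (log2 0.35, limma adjusted p = 0.0342) and with a robust variance trend (0.0499), and PLXNC1, PLXNB3 and PLXNB1 passed after quantile normalization (0.0306, 0.0355 and 0.0416). PLXNA4 stayed under 0.07 FPKM. The summed plexin level was 58.3 ± 2.56 FPKM in shCAVIN1 and 56.4 ± 4.09 FPKM in shCtrl, a difference within the spread of the libraries.

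Ephrins rose in 4 of 6 tested cases and fell in 1, while 27.3% of all tested genes rose and 28.2% fell. EFNA1, the main ligand of EPHA2, was at 5.66, 5.81 and 5.22 FPKM in shCAVIN1 libraries, against 1.58, 1.89 and 1.76 FPKM in shCtrl libraries. Each shCAVIN1 library was over 5 FPKM and each shCtrl library under 2 FPKM, a ratio of 3.19 (log2 1.44, SE 0.075, limma adjusted p = 4.3e-05). EFNB2, the ligand of EPHB4 that marks arterial endothelium, was at 7.21, 7.86 and 7.70 FPKM in shCAVIN1 libraries, against 2.67, 2.34 and 2.62 FPKM in shCtrl libraries. The rise was 2.98-fold and left a wide gap between the groups (log2 1.41, SE 0.064, limma adjusted p = 2.63e-05). EFNB1 was at 10.6, 11.8 and 11.6 FPKM in shCAVIN1 libraries, against 7.58, 7.13 and 6.99 FPKM in shCtrl libraries (log2 0.61, SE 0.0587, limma adjusted p = 0.00033). EFNA4 rose by less, to 5.39 ± 0.475 FPKM in shCAVIN1, against 3.85 ± 0.283 FPKM in shCtrl (SD, n = 3 each; limma adjusted p = 0.0049), and its neighbour EFNA3 did not pass, at 1.81 ± 0.279 FPKM in shCAVIN1 and 1.86 ± 0.0788 FPKM in shCtrl.

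EFNB3, a transmembrane ephrin known as a midline barrier in the mouse spinal cord, was the exception. It stood at 4.78, 5.05 and 4.67 FPKM in shCAVIN1 libraries, against 11.8, 11.5 and 11.4 FPKM in shCtrl libraries. The mean was 41.9% of that in shCtrl with little spread in either group (log2 -1.18, SE 0.046, limma adjusted p = 1.72e-05). The 3 ephrin-B genes summed to 23.8 ± 1.10 FPKM in shCAVIN1 and 21.3 ± 0.618 FPKM in shCtrl (SD, n = 3 each), and EFNB3 held 19.5% to 21.2% of the sum in shCAVIN1 libraries, against 53.5% to 54.8% in shCtrl libraries. EFNB2 held 31.7% to 32.1% in shCAVIN1 and 11.2% to 12.5% in shCtrl. The ephrin-A sum was 13.1 ± 0.176 FPKM in shCAVIN1 and 7.65 ± 0.427 FPKM in shCtrl.

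**Figure D3:**
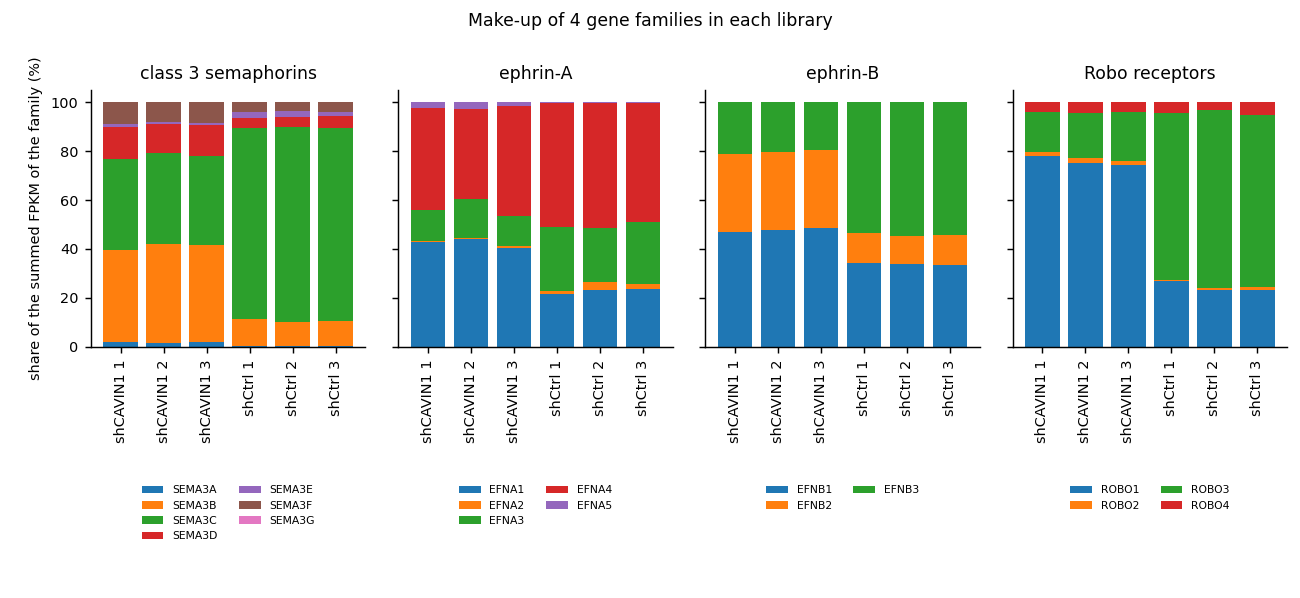
Share of the summed FPKM of a family (vertical axis, percent) held by each gene in the 3 shCAVIN1 and 3 shCtrl libraries, for class 3 semaphorins, ephrin-A, ephrin-B and Robo receptors. SEMA3C leads class 3 in shCtrl at 78.9% and SEMA3B in shCAVIN1 at 39.3%, EFNB3 leads ephrin-B in shCtrl at 54.2% and EFNB1 in shCAVIN1 at 47.7%, and ROBO1 holds 75.8% of the Robo sum in shCAVIN1 and 24.5% in shCtrl.

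Among the tested Eph receptor kinases, all 5 EphA genes rose, while EPHB2 and EPHB6 fell and EPHB4 did not pass. Over all tested genes, 27.3% rose and 28.2% fell. EPHA3, EPHA5, EPHA6 and EPHB6 reached the filter only through the group where they were higher, so this split by subfamily is by itself no support. EPHB3, under the filter, went against the split. It was at 0.440, 0.505 and 0.412 FPKM in shCAVIN1 libraries, against 0.280, 0.227 and 0.197 FPKM in shCtrl libraries. EPHA2, a receptor of epithelial and stromal cells that EFNA1 activates, was at 30.8, 31.1 and 33.2 FPKM in shCAVIN1 libraries, against 11.5, 11.2 and 11.2 FPKM in shCtrl libraries. Its level was 2.80-fold higher with tight groups (log2 1.44, SE 0.0443, limma adjusted p = 9.07e-06), and EPHA2 made up 78.7% to 79.3% of the EphA sum in shCAVIN1 libraries, against 77.5% to 78.6% in shCtrl libraries. The EphA sum was 40.1 ± 1.59 FPKM in shCAVIN1 and 14.5 ± 0.290 FPKM in shCtrl (SD, n = 3 each). EPHA4, which binds ephrins of the A and B classes, rose to 3.92 ± 0.0675 FPKM in shCAVIN1, against 2.08 ± 0.0877 FPKM in shCtrl (log2 0.78, limma adjusted p = 0.000109).

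The remaining EphA receptors, best known from the nervous system, were low. EPHA5 was at 1.60, 1.63 and 1.67 FPKM in shCAVIN1 libraries, against 0.290, 0.297 and 0.407 FPKM in shCtrl libraries (log2 1.36, SE 0.0907, limma adjusted p = 9.21e-05). EPHA3 averaged 0.864 ± 0.0687 FPKM in shCAVIN1 and 0.344 ± 0.0143 FPKM in shCtrl (SD, n = 3 each), and EPHA6 averaged 0.910 ± 0.193 FPKM in shCAVIN1 and 0.226 ± 0.0692 FPKM in shCtrl. EPHA7 fell just under the filter with a mean of 0.466 FPKM over all libraries, yet its groups lay far apart, at 0.796, 0.968 and 0.942 FPKM in shCAVIN1 libraries, against 0.0487, 0.0197 and 0.0244 FPKM in shCtrl libraries. EPHA1 and EPHA10 stayed under 0.17 FPKM, and EPHA8 was listed at 0 in all 6 libraries.

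EPHB4, the receptor of EFNB2, was the most abundant EphB gene, at 17.5, 16.6 and 18.3 FPKM in shCAVIN1 libraries, against 17.8, 19.5 and 17.5 FPKM in shCtrl libraries. These groups overlapped (log2 -0.06, SE 0.0597, limma adjusted p = 0.413), and EPHB4 shares exon sequence with SLC12A9 on the opposite strand, a row that averaged 5.35 FPKM. EPHB2 fell to 5.03 ± 0.237 FPKM in shCAVIN1, against 7.06 ± 0.297 FPKM in shCtrl (SD, n = 3 each; log2 -0.45, limma adjusted p = 0.00089), a call lost on the TPM scale (log2 -0.34, adjusted p = 0.143). EPHB6, a receptor whose kinase domain is catalytically inactive, was at 0.158, 0.102 and 0.0412 FPKM in shCAVIN1 libraries, against 1.43, 1.65 and 1.59 FPKM in shCtrl libraries. Its mean was 6.47% of that in shCtrl (log2 -1.78, SE 0.111, limma adjusted p = 7.5e-05), and the fitted value ranged from -3.08 with a pseudocount of 0.1 to -1.21 with a pseudocount of 1.

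Of the Slit and Robo genes, ROBO1 rose and SLIT2 and ROBO3 did not pass. ROBO1, the widely expressed Slit receptor, had the largest log2 fold change of the 45 tested guidance genes, at 7.26, 6.50 and 6.63 FPKM in shCAVIN1 libraries, against 0.692, 0.620 and 0.635 FPKM in shCtrl libraries. The ratio of means was 10.5 (log2 2.67, SE 0.0669, limma adjusted p = 4.74e-06). SLIT2, the secreted ligand of ROBO1, was at 11.97, 9.88 and 9.39 FPKM in shCAVIN1 libraries, against 9.28, 4.93 and 8.06 FPKM in shCtrl libraries. The SLIT2 groups did not overlap, but shCtrl replicate 2 lay well under the other control libraries, and the difference missed the threshold (log2 0.50, SE 0.225, limma adjusted p = 0.105), passing it only after rescaling to TPM (log2 0.62, adjusted p = 0.031). Without shCtrl replicate 2 its log2 fold change was 0.25 (limma adjusted p = 0.142), and without shCtrl replicate 1 it was 0.67 (0.0529). ROBO3, a Robo that mammals use for midline crossing, averaged 1.63 ± 0.133 FPKM in shCAVIN1 and 1.87 ± 0.0999 FPKM in shCtrl (SD, n = 3 each; limma adjusted p = 0.131). ROBO1 made up 74.3% to 78.2% of the Robo sum in shCAVIN1 libraries, against 23.3% to 26.9% in shCtrl libraries.

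The 3 tested netrins fell by small steps, while 28.2% of all tested genes fell. NTN4, a netrin related to the laminin beta chain that binds laminin in basement membranes, made up 92.8% to 94.3% of the netrin sum in every library, at 18.6, 18.1 and 18.9 FPKM in shCAVIN1 libraries, against 22.4, 22.2 and 20.5 FPKM in shCtrl libraries. The highest shCAVIN1 library lay just under the lowest shCtrl library (log2 -0.22, SE 0.0485, limma adjusted p = 0.00941). NTN1, the classical attractant, was at 0.557, 0.497 and 0.599 FPKM in shCAVIN1 libraries, against 0.775, 0.892 and 0.858 FPKM in shCtrl libraries (log2 -0.35, SE 0.0901, limma adjusted p = 0.0169). NTN3 averaged 0.374 ± 0.0989 FPKM in shCAVIN1 and 0.686 ± 0.00903 FPKM in shCtrl (SD, n = 3 each; log2 -0.45, limma adjusted p = 0.0164). The calls of all 3 netrins were lost after rescaling to TPM, at log2 fold changes of -0.30 (NTN1), -0.42 (NTN3) and -0.10 (NTN4). Of the dependence receptors for netrins, UNC5A, UNC5B and UNC5C stayed under 0.3 FPKM and UNC5D was listed at 0 in all libraries. DCC, the attractive netrin receptor, stayed under 0.01 FPKM, while neogenin (NEO1) averaged 8.95 ± 0.596 FPKM in shCAVIN1 and 10.4 ± 1.58 FPKM in shCtrl (limma adjusted p = 0.186).

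The 23 guidance genes under the filter comprised 20 that stayed under 0.5 FPKM in every library, of which 2 were listed at 0 throughout, and 3 that reached 0.5 FPKM in at least 1 library (EPHA7, EPHB3 and SEMA6D). When every row above 0 was tested, 21 of the 23 could be tested and 8 passed, with 37.7% of all 22580 rows passing in that test (18.7% higher and 19% lower). That share includes the 13941 rows above the filter, so it is no like comparison for the low rows. The share over the rows under the filter alone was not computed. EPHA7, EFNA5, NTN5, ROBO4, EPHB3 and ROBO2 were higher in shCAVIN1, and SEMA6D and UNC5A lower. EFNA5 was at 0.318, 0.369 and 0.226 FPKM in shCAVIN1 libraries, against 0.00474, 0.0271 and 0.0321 FPKM in shCtrl libraries. SEMA6D was at 0.0791, 0.110 and 0.0758 FPKM in shCAVIN1 libraries, against 0.556, 0.497 and 0.622 FPKM in shCtrl libraries. ROBO4, a Robo of endothelial cells, averaged 0.367 ± 0.0274 FPKM in shCAVIN1 and 0.111 ± 0.0272 FPKM in shCtrl (SD, n = 3 each), and ROBO2 averaged 0.162 ± 0.0149 FPKM in shCAVIN1 and 0.0241 ± 0.00984 FPKM in shCtrl. NTN5 averaged 0.324 ± 0.0677 FPKM in shCAVIN1 and 0.0454 ± 0.00591 FPKM in shCtrl. Values this low rest on few fragments, whose number is unknown.

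Markers of other cell types were measured beside the low guidance genes. Of 5 neuronal markers, SYT1 rose to 0.966 ± 0.0477 FPKM in shCAVIN1, against 0.104 ± 0.0412 FPKM in shCtrl, and MAP2 rose to 1.29 ± 0.044 FPKM, against 0.467 ± 0.0937 FPKM in shCtrl (SD, n = 3 each; limma adjusted p = 0.000167 and 0.000641). TUBB3, a tubulin also made outside neurons, did not pass, at 29.7 ± 1.38 FPKM in shCAVIN1 and 32.5 ± 1.88 FPKM in shCtrl. RBFOX3 stayed under 0.11 FPKM in all libraries. SNAP25, under the filter, was listed at 0 in all 3 shCAVIN1 libraries, against 0.135, 0.330 and 0.206 FPKM in shCtrl libraries. With TUBB3 as nearly the whole of it, the sum of the 5 lay between 31.1 and 33.5 FPKM in shCAVIN1 and between 31.8 and 35.5 FPKM in shCtrl. Of 4 endothelial markers, TEK rose to 0.941 ± 0.0177 FPKM in shCAVIN1, against 0.227 ± 0.0623 FPKM in shCtrl (limma adjusted p = 0.000458), and PECAM1, CDH5 and VWF stayed under 0.12 FPKM. With TEK as its largest part, the sum of the 4 was 1.12 FPKM in each shCAVIN1 library and 0.260 to 0.396 FPKM in shCtrl. SYT1, MAP2 and TEK reached the filter only through shCAVIN1, where they were higher, so their rises are no independent support. All 4 Schwann and glial markers were under 1 FPKM, with sums of 0.320 to 0.467 FPKM in shCAVIN1 and 0.672 to 0.835 FPKM in shCtrl.

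Several guidance genes lie close together, and neighbours of a family did not always move alike. SEMA3F (chr3:50155045-50189075) and SEMA3B (chr3:50267558-50277546) are 78.5 kb apart on GRCh38 and both rose. On chromosome 7, SEMA3E and SEMA3A are 307 kb apart, and SEMA3E fell while SEMA3A and the next gene, SEMA3D, rose. EFNA4, EFNA3 and EFNA1 lie within 57.9 kb of each other on chromosome 1, where EFNA4 and EFNA1 rose and EFNA3 did not pass. ROBO1 (chr3:78597240-79767815) lies 947 kb from ROBO2, and both were higher in shCAVIN1, ROBO2 at under 0.18 FPKM.

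The other genes around a guidance gene also differed between the groups in some places. For comparison, 27.3% of all tested genes rose and 28.2% fell. Around EFNA1 (chr1:155127460-155134857), 100 of the 148 other tested genes within 5 Mb rose and 11 fell, at a median of 0.45 (log2 fold change). Around EFNB2 (chr13:106489731-106535662), 20 of 23 rose at a median of 0.63, and around EPHA2 (chr1:16124337-16156087), 44 of 70 rose at a median of 0.29. Less these medians, the log2 fold changes of EFNA1, EFNB2 and EPHA2 were 0.99, 0.78 and 1.15, against 1.44, 1.41 and 1.44 as fitted. NRP2 lay among falling genes, with 38 of 50 neighbours lower at a median of -0.54. Its log2 fold change was -0.82 as fitted and -0.27 less that median. EFNA4 was at -0.02 and SEMA4C at 0.00 after the same subtraction. Neighbours of EPHB6 had a median of -0.31 and those of EFNB3 of -0.14. In contrast, the median around ROBO1 was 0.03 over 5 genes, around SEMA3B and SEMA3F 0.08, around SEMA3A 0.09, around SEMA3D -0.10 and around EPHA5 -0.03. EFNB1 and EPHA4 rose among neighbours that were mostly lower (medians of -0.35 and -0.26), and EPHB2 fell among neighbours that were mostly higher (0.29). The part of these surroundings in the results was not tested.

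**Figure D4:**
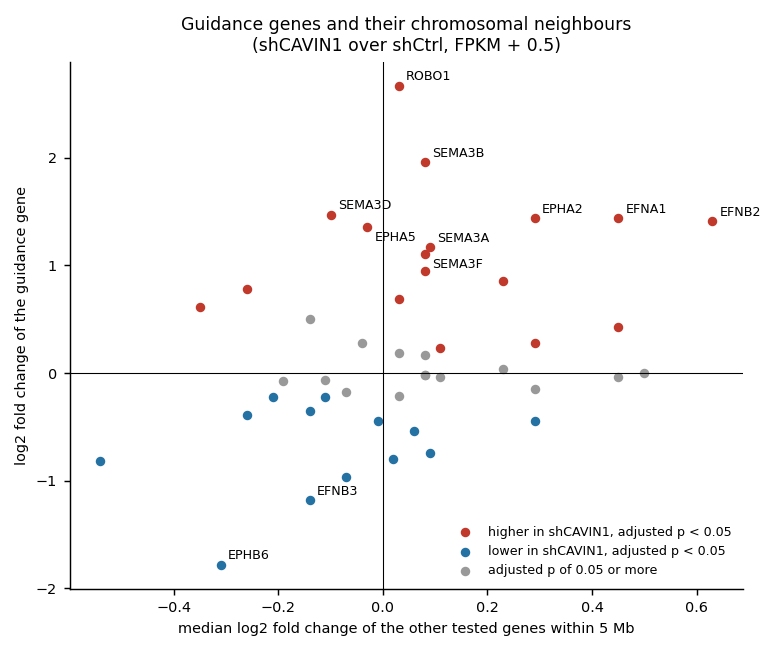
Log2 fold change of each tested guidance gene (vertical axis) against the median log2 fold change of the other tested genes within 5 Mb (horizontal axis), shCAVIN1 over shCtrl, with the 11 genes changed at least 2-fold named. ROBO1 and SEMA3B stand high over neighbours near 0, while EFNB2 and EFNA1 stand over neighbours at 0.63 and 0.45.

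Of 84 co-receptors and signalling partners, 66 were tested, 15 rose, 24 fell and 27 did not pass, and the median log2 fold change was -0.09. The share changed was 59.1%, against 55.5% of all tested genes. Of the 66, 6 passed with at least a 2-fold change on the log2(FPKM + 0.5) scale and no overlap, and all 6 fell. Changes of this kind were seen in 5.52% of all tested genes (2.64% higher and 2.88% lower). In mean FPKM the higher partners NGEF, at a ratio of 3.22, and L1CAM also exceeded 2-fold. TIAM1, PLXDC2 and RND2, among the 6, reached the filter only through shCtrl, and NGEF only through shCAVIN1. The direction of these large changes is therefore no independent support. TIAM1, a Rac activator that binds EphA2 and ephrin-B proteins, was at 0.0642, 0.0676 and 0.0536 FPKM in shCAVIN1 libraries, against 5.22, 4.55 and 4.99 FPKM in shCtrl libraries (log2 -3.27, SE 0.0777, limma adjusted p = 4.5e-06). PLXDC2, a plexin domain protein, was listed at 0 in all 3 shCAVIN1 libraries and stood at 1.86, 1.70 and 1.66 FPKM in shCtrl libraries.

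Of the 6 large falls, 3 were in the list for semaphorin signalling inside the cell, the longest list, with 17 of the 66 tested genes. Among all tested genes, 2.88% fell in this way, and 1 of the 3, RND2, reached the filter only through shCtrl. DPYSL3, a collapsin response mediator protein, fell to 6.53 ± 0.209 FPKM in shCAVIN1, against 30.6 ± 0.538 FPKM in shCtrl (SD, n = 3 each; log2 -2.14, limma adjusted p = 2.09e-06). RND2 fell to 0.494 ± 0.0287 FPKM in shCAVIN1, against 2.33 ± 0.0719 FPKM in shCtrl, and the actin-oxidising enzyme MICAL2 to 9.90 ± 0.5 FPKM, against 40.0 ± 4.74 FPKM in shCtrl. DPYSL2, the relative of DPYSL3, rose slightly instead (log2 0.24, limma adjusted p = 0.011). GIPC1, which binds the tail of NRP1, rose by more (log2 0.81, limma adjusted p = 4.39e-05). ABLIM1, an actin-binding protein whose worm relative acts in netrin signalling, fell to 2.56 ± 0.109 FPKM in shCAVIN1, against 8.30 ± 1.04 FPKM in shCtrl (log2 -1.52, limma adjusted p = 7.04e-05). RGMB, a ligand of neogenin, had a mean in shCAVIN1 of 13.6 ± 0.264 FPKM, against 27.0 ± 1.36 FPKM in shCtrl (log2 -0.96, limma adjusted p = 3.75e-05). L1CAM, the adhesion molecule that assembles with neuropilin-1, rose to 5.05 ± 0.390 FPKM in shCAVIN1, against 2.33 ± 0.336 FPKM in shCtrl (limma adjusted p = 0.000443). In Slit-Robo signalling 8 of 11 tested genes did not pass, 1 rose (CAP1) and 2 fell (GPC1 and ENAH), beside the rise of ROBO1. The share changed in this list was 27.3%, against 55.5% of all tested genes.

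**Figure D5:**
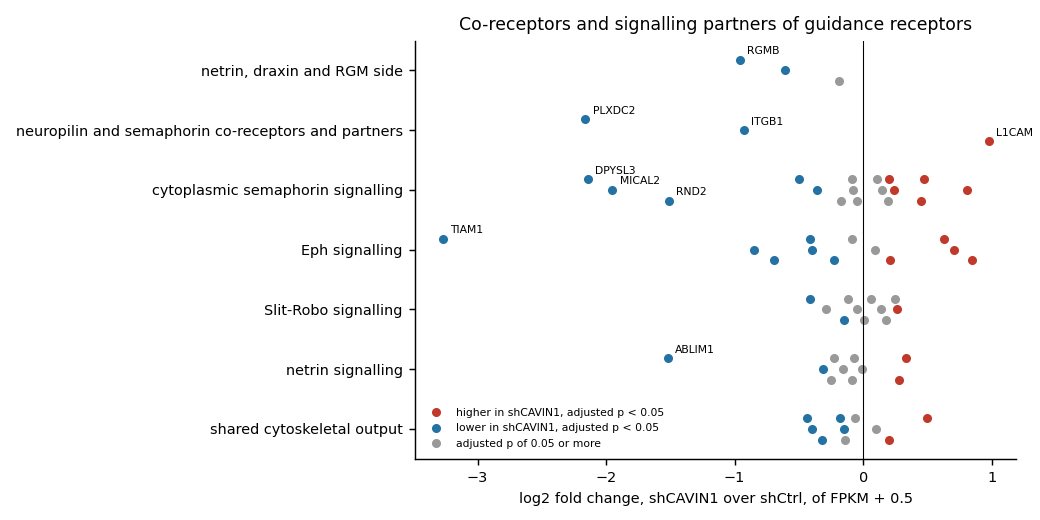
Log2 fold change (shCAVIN1 over shCtrl, horizontal axis) of the 66 tested co-receptors and signalling partners, by their place in the pathways (vertical axis). TIAM1 lies farthest to the left at -3.27, and no point reaches 1 on the right.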

How the data were processed

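The authors deposited a table of FPKM values, with 1 column for each of the 6 libraries. The submitters' processing notes name GRCh38 as the build, and as tools TopHat, TopHat2 (2.2.5), CASAVA and bcl2fastq (2.17.1.14). Quantifier, annotation, filters and strand setting: not given in the sources used here. Per the labels' protocols, TRIzol was used for extraction and a stranded kit for the total RNA libraries. Depth per library is unknown, which leaves no counting interval and makes low values the least certain. A value of exactly 0 can be a failed estimate. From the deposited values, log2(FPKM + 0.5) was fitted with limma 3.58.1 in R 4.3.3 (group as the only term, trended variances), for rows with a mean FPKM of at least 0.5, and p-values were adjusted by Benjamini-Hochberg over all 13941 rows, with 0.05 as the threshold. The fit was tested on simulated data. Positions come from GENCODE 29, to which all 68 guidance rows and 23816 of 33117 rows in all matched. The members and lists were chosen with earlier results of these data known. Values in every library are given for members past the threshold with at least a 2-fold change and no overlap, and for the 2 members with the highest mean in each class. Of the partner list, the 4 lowest adjusted p are named, and other partners were chosen after their values were seen. Alternatives changed the pseudocount, filter, scaling, variance prior, replicate block and libraries.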

Additional observations from a re-analysis of the deposited data

How the results depend on the processing

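Of the 30 guidance genes past the threshold, 22 kept their call and direction in each of the 16 alternatives that tested them, 8 lost the call in at least 1, and none changed sign. The 11 genes changed at least 2-fold stayed past the threshold in every alternative that tested them, but not always at that size: with a pseudocount of 1, SEMA3A, EPHA5 and SEMA3F were at log2 0.80, 0.98 and 0.98, and with 0.1, EPHA3, EPHA6 and SEMA3E reached 1.12, 1.64 and -1.04. Of the 15 genes not past the threshold, 5 passed in at least 1 alternative. Rescaling to TPM moved the median log2 fold change of all tested genes to 0.09, against -0.02 as deposited, and left 3412 genes changed, 7 guidance genes lower, a guidance median of 0.10 and 7 partners higher and 11 lower. With a mean of at least 2 FPKM required, 29 guidance genes were tested, of which 13 rose and 7 fell. The median of the 29 was 0.17, against -0.01 over all 11315 genes tested there, of which 6530 changed. Quantile normalization gave a guidance median of 0.075, against 0.012 over all tested genes. It called 20 guidance genes higher and 11 lower, with 8037 of all 13941 tested genes changed. Leaving out 1 library at a time gave 6218 to 8468 genes changed, 16 to 18 guidance genes higher and 11 to 14 lower, a guidance median from -0.015 to 0.051, and 11 to 20 partners higher and 21 to 31 lower. The guidance median thus crosses 0, and the cause was not tested.

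Sign changes were seen only among the 15 genes not past the threshold, in 8 of them. On the TPM scale the log2 fold change was 0.061 for EFNA3, 0.058 for EPHB4, 0.060 for PLXNA2, 0.10 for PLXNB2, 0.069 for PLXND1 and 0.045 for SEMA7A. After quantile normalization it was 0.029 for EFNA3, 0.031 for PLXNA2 and 0.019 for PLXND1. Over the omission of each library in turn, it ran from -0.13 to 0.033 for EFNA3, from -0.073 to 0.051 for PLXNA2, from -0.070 to 0.034 for PLXNB2, from -0.065 to 0.0090 for PLXND1, from -0.046 to 0.12 for SEMA4D and from -0.017 to 0.042 for SEMA6C. With libraries rescaled to equal protein-coding sums, an alternative chosen after seeing the data, SEMA6C was at -0.0094, and 16 guidance genes rose and 12 fell. That setting left 7809 of all tested genes changed, against 3412 on the TPM scale, whose sums include RN7SK. The reason for this difference was not tested.

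Libraries with the same replicate number did not deviate together (r of 0.0936, 0.0714 and -0.0282 for numbers 1, 2 and 3, across genes, which are not independent). With the replicate number as a block, 7167 genes changed, 17 guidance genes rose and 11 fell, and 13 partners rose and 22 fell. NTN1 and SEMA5A missed the threshold there, at adjusted p of 0.0533 and 0.0516. Depth is unknown, which limits the genes under the filter most.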
